A study of Mus musculus with 8 samples.

Results

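Pcp2, Gng13, Prkca and Pcp4 are signalling genes of the retina's bipolar cells, in particular of rod bipolar and ON bipolar cells. They were picked as the rows with these symbols in the authors' deposited table of KO against WT, where all 4 were found among 1802 listed genes. They were chosen by their log differences in that same comparison, where they led the bipolar cell markers. Their differences are therefore described below and not tested. Mouse retinas were digested with papain, and single cells were profiled from the 3′ end of transcripts. The labels give 3 libraries of genotype Control, titled WT, and 5 of genotype ABCA1KO, titled KO. ABCA1 moves cholesterol and phospholipid out of cells onto apolipoproteins, and the series title speaks of astrocytes and optic neuropathy. Strain, age, sex, the deleted part of the gene, the cells in which it was deleted and whether each library is a separate animal are not stated in the labels.

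Bipolar cells are the interneurons that carry signals from photoreceptors to the inner retina. ON bipolar cells, to which the rod bipolar cells belong, read the photoreceptors' glutamate through the receptor mGluR6, the product of Grm6. In the dark the receptor keeps the G protein Go active, which holds the cation channel TRPM1 closed, and in light the channel opens. Gng13 encodes the gamma subunit that works with Go alpha (Gnao1) and G beta 3 (Gnb3) in this cascade. Pcp2 encodes a small protein with a GoLoco motif that binds Go and Gi alpha subunits. Prkca encodes protein kinase C alpha, the classic antibody marker of rod bipolar cells. Pcp4 encodes a small IQ-motif protein that binds calmodulin, and in the retina it is not confined to bipolar cells. Pcp2 and Pcp4 take their names from cerebellar Purkinje cells, where both are abundant.

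The sequence before the start site of each gene is shown as description. That the 4 genes were higher together in KO follows from how they were chosen, and shared control was not tested. In GRCm38 with the GENCODE M21 annotation, Pcp2 lies on chromosome 8 from 3623371 to 3625545, minus strand. Gng13 lies on the plus strand of chromosome 17 from 25717171 to 25719406, and Pcp4 on the plus strand of chromosome 16 from 96467606 to 96525793. Prkca, on the minus strand of chromosome 11, is by far the longest, at 410542 bases from 107933387 to 108343928. The start sites are those of RefSeq on GRCm38.p6, with the outermost one taken where the promoter table held several (4 for Pcp2 and 2 for Gng13). Of the 250 bases before each start site, the longest stretch free of annotated exons of any gene is printed, 5′ to 3′ on the gene's strand. The stretches are chr8:3625607-3625778 for Pcp2, chr17:25716922-25717170 for Gng13, chr11:108343929-108344138 for Prkca and chr16:96467356-96467605 for Pcp4. Capitals mark matches to any of 6 short motifs listed after the sequences.
Pcp2: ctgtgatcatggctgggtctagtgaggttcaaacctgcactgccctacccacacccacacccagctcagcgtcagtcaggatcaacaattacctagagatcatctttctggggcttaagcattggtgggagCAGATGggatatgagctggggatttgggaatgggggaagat
Gng13: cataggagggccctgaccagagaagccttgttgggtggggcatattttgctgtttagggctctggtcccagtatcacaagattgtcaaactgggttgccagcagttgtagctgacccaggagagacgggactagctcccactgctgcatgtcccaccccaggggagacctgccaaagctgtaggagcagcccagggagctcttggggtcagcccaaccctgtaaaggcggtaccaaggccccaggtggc
Prkca: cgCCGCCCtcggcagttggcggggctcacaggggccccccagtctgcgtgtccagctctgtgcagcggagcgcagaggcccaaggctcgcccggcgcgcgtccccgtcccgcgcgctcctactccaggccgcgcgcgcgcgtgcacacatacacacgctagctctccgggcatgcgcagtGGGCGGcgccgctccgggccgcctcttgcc
Pcp4: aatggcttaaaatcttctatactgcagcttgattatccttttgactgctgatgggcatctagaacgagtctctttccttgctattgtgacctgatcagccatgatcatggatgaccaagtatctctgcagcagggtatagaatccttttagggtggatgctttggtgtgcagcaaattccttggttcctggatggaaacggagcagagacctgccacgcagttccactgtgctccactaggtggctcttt

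The motifs were searched on both strands of the whole 250-base windows, and they were chosen with the sequences in view. The letters TAATCC, the core that the homeodomain factors OTX2 and CRX bind, were found in 0 of the 4 windows and in 6.3% of 32851 promoter windows of the same length. TAATTA, a core of other homeodomain factors, was also found in 0 of the 4, against 4.8% of all windows and 2.9% of those of listed genes. The E-box CAGATG occurred once, before Pcp2, from 100 to 95 bases before the start, and in 14.4% of all windows. The E-box CAGCTG (13.0% of all windows) and the TATA-box letters TATAAA (12.4%) occurred in 0 of the 4. The GC box GGGCGG occurred in the Prkca window in 2 places, from 248 to 243 and from 70 to 65 bases before the start, and in 32.7% of all windows and 54.1% of the windows of listed genes. Of the 6 motifs, 0 were found in all 4 windows, and the matches did not overlap one another. Base composition differed widely, with 76.8% G and C before Prkca, 58.8% before Gng13, 52.8% before Pcp2 and 46.8% before Pcp4. The Prkca window had more G and C than 97.2% of all windows.

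Every member shares ground with another annotated gene. Of 1828 annotated exon bases of Pcp2, 941 also lie in exons of Pet100 on the opposite strand, and of 773 of Gng13, 399 lie in exons of Chtf18 on the opposite strand. Pcp4 shares 243 of its 1026 exon bases with Igsf5 on the same strand. For Prkca the shared part was 30 of 8992 bases, with Apoh on the opposite strand. How the counting treated such reads is not stated in the labels, so the values of Pcp4 and, without strand, of Pcp2 and Gng13 carry that uncertainty. Of these 4 neighbours, 0 are among the listed genes (Pet100, Chtf18, Igsf5, Apoh).

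All 4 members were higher in cells of the KO libraries, with log differences close together. They were chosen at the top of the bipolar markers by that value, so nothing is read from the narrow band. Their gains in share ran from 22.2 to 27.7 points. A value per library is not in the table, so the measurement for each gene is the pooled share of cells above 0 in each genotype and 1 log difference. The log difference is KO minus WT, read as a natural log, and the values behind it appear to be batch-integrated, so it is not a fold change of expression. For Pcp2, the GoLoco protein gene, the authors' deposited table gives values above 0 in 53.1% of WT cells and 80.8% of KO cells, and a log difference of 0.125. For Gng13, the G gamma subunit gene, the shares were 56.6% of WT and 78.8% of KO cells and the log difference was 0.122 in the authors' deposited table. Both genes encode proteins that are part of the G protein or bind it. For Prkca, the kinase gene, 48.3% of WT and 71.8% of KO cells were above 0, and the authors' deposited table gives 0.121 as its log difference. For Pcp4, the calmodulin-binding gene, 55.4% of WT and 79.8% of KO cells were above 0, and the authors' deposited table gives 0.115 as its log difference. The 4 log differences thus spanned 0.0103 from lowest to highest, and the lowest KO share of any member (71.8%) lay above the highest WT share of any member (56.6%). Over all listed genes the median share was larger in KO too, at 62.7% against 40.3% in WT.

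The adjusted p-values in the authors' deposited table were 2.13e-248 for Pcp2, 2.70e-154 for Pcp4, 4.66e-105 for Gng13 and 3.50e-87 for Prkca. They were made by the authors over pooled cells, apparently with each cell as a replicate, and do not measure the spread between the 3 WT and 5 KO libraries. All 4 members were called higher at an adjusted p under 0.05, as were 69.1% of all 1802 listed genes, and 93.2% were called in either direction. The largest raw p in the table is 0.00938, so genes with a larger one appear to be left out of it, which raises these shares. Since the members were chosen in this comparison, nothing is read from their count. Of the 1680 called genes 74.2% were higher, or 49.2% when read against the median log difference of 0.010, and all 4 members lay above that median too. Members stood near the top by size, since called genes with a log difference above 0.1 made up 2.33% of those listed. The targeted gene, Abca1, was itself higher in KO: the authors' deposited table gives it a log difference of 0.0294, with 48.7% of KO and 30.5% of WT cells above 0. Its gain in share, 18.2 points, was below the median gain of 20.8 points over all listed genes. The table says nothing of which part of Abca1 the 3′ tags cover, so the genotype labels were not checked by it.

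**Figure D1:**
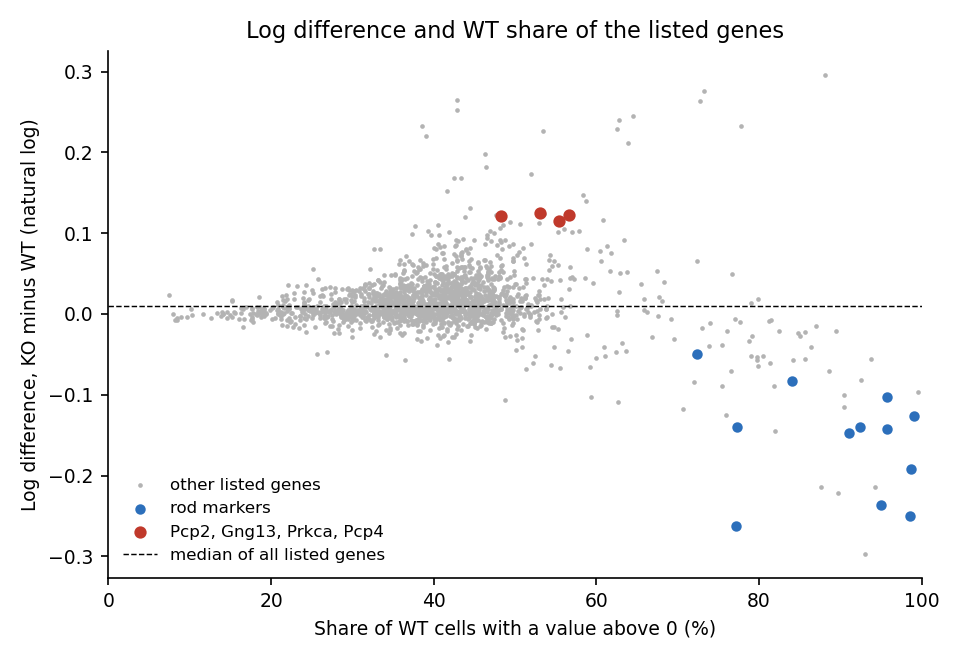
Log difference between KO and WT cells (natural log, vertical) against the share of WT cells with a value above 0 (percent, horizontal), 1 point per listed gene. Pcp2, Gng13, Prkca and Pcp4 (red) lie between 0.115 and 0.125 at WT shares of 48.3% to 56.6%, while the rod markers (blue) lie below 0 at WT shares of 72.4% or more. The dashed line is the median of all 1802 listed genes, 0.010.

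The members ranked closely together by log difference, the value on which they were chosen. They stood at 23 (Pcp2), 26 (Gng13), 27 (Prkca) and 31 (Pcp4) of 1802 from the highest in the authors' deposited table. The gene just above Pcp2 was Pde6h (0.132), a cone phosphodiesterase subunit gene, and the one just below it was Gnb3 (0.124) in the authors' deposited table. App (0.123) stood next above Gng13, Dner (0.119) next below Prkca, and Ank2 (0.114) next below Pcp4 in the authors' deposited table. Within the bipolar markers looked for, the next gene below the 4 members was Grik1, at 0.110 in the authors' deposited table. Grik1 encodes a kainate receptor subunit that OFF bipolar cells use, and it lay 0.0048 below Pcp4.

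The share of cells above 0 gave another order than the log difference did. In WT cells the order from the highest was Gng13 (56.6%), Pcp4 (55.4%), Pcp2 (53.1%) and Prkca (48.3%) in the authors' deposited table. In KO cells it was Pcp2 (80.8%), Pcp4 (79.8%), Gng13 (78.8%) and Prkca (71.8%) in the authors' deposited table. Pcp2 and Gng13 thus changed places between the genotypes, and Prkca had the lowest share in both. With no spread between libraries, it cannot be said which of these neighbours differ.

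The gain in share from WT to KO was 27.7 percentage points for Pcp2, 24.4 for Pcp4, 23.5 for Prkca and 22.2 for Gng13. The median gain over all 1802 listed genes was 20.8, and 97.9% of them had a larger share in KO. Gng13 was thus 1.4 points above the median gene by its gain, and 41.0% of the listed genes had a larger one. For Prkca 31.1% of the listed genes had a larger gain, for Pcp4 24.8% and for Pcp2 9.9%. On the log difference the same 4 genes were exceeded by 1.2% to 1.7% of the listed genes. Ranked by the odds ratio of the shares in place of the difference, Pcp2 moved from 180 to 77, Gng13 from 740 to 418 and Pcp4 from 448 to 220, and Prkca from 561 to 530. The odds ratios were 3.72 for Pcp2, 3.18 for Pcp4, 2.85 for Gng13 and 2.73 for Prkca, against a median of 2.40. By the raw p in the authors' deposited table the members ranked at 248 (Pcp2), 445 (Pcp4), 618 (Gng13) and 693 (Prkca) from the smallest.

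**Figure D2:**
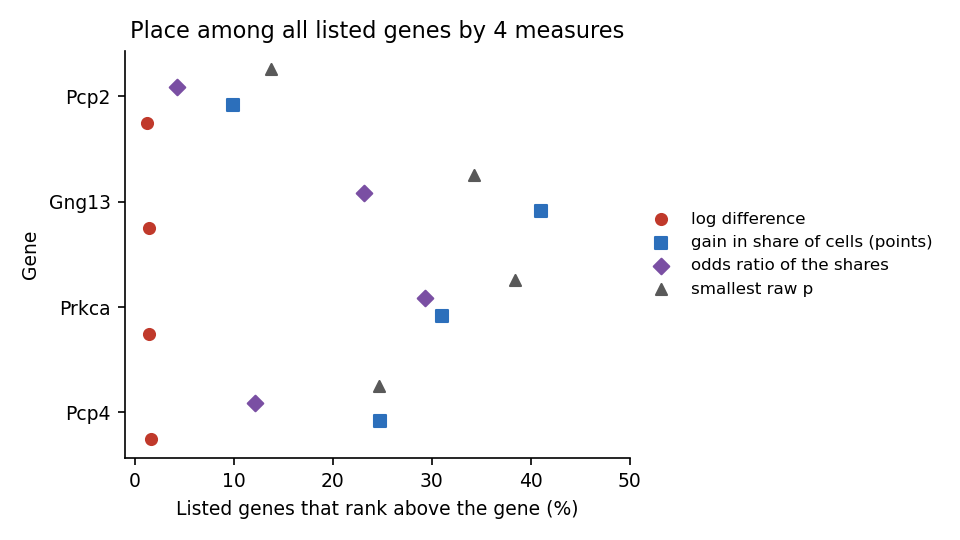
Percent of the 1802 listed genes that rank above each of Pcp2, Gng13, Prkca and Pcp4 (horizontal) by log difference, by gain in the share of cells above 0, by the odds ratio of the shares and by the smallest raw p. All 4 genes sit at 1.2% to 1.7% by log difference, while by gain they run from 9.9% for Pcp2 to 41.0% for Gng13.

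Genes with a WT share like that of a member were mostly far below it in log difference. The members were chosen on that value, so the small counts of genes above them follow from the choice. Of 193 other listed genes whose WT share lay within 5 percentage points of that of Pcp2, 2 had a larger log difference, and the median of those 193 was 0.0180. For Gng13, 6 of 89 such genes had a larger log difference, for Prkca 7 of 480 and for Pcp4 8 of 112. By the gain in share the picture was less uniform. Among the same neighbours, 12 of 193 had a larger gain than Pcp2, 18 of 112 a larger one than Pcp4, 30 of 89 a larger one than Gng13 and 185 of 480 a larger one than Prkca.

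The genes most like each member were sought over its log difference and both shares, by the summed difference in rank among the 1802 listed genes. This likeness covers 1 comparison of 2 pools of cells. Gng13 and Pcp4 were near one another, at a summed rank difference of 24.5, and Pcp4 was also the gene nearest to Pcp2, at 43.5. Hspb1, a small heat shock gene, came nearest to Pcp4 at 24, and Dapl1 and Dhx32 were the others near Gng13, the latter at 32.5. For Prkca the nearest were Ank2 at 81, the cone gamma subunit gene Gngt2 at 92.5 and the complexin gene Cplx3. These larger rank differences do not set Prkca apart, since ranks are more crowded there. Within 5 points of WT share it had 480 other listed genes, against 89 for Gng13. By value Ank2 was close to it, above 0 in 49.4% of WT and 71.2% of KO cells, beside 48.3% and 71.8% for Prkca. No other member was among the 3 genes nearest to Prkca.

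The cascade around mGluR6 was higher in KO throughout its listed genes. In front were Gnb3 and the members, which were chosen on that value. Of 14 cascade genes looked for, 10 were listed, and the authors' deposited table calls all 10 higher, beside 69.1% of all listed genes. Without Pcp2, Gng13 and Prkca the count was 7 of 7, and the median log difference of those 7 was 0.0526, against 0.010 over all listed genes. The cascade list was written with earlier results of these data known. Rgs7, Rgs11, Nyx and Lrit3 were not listed, which does not show that they were unchanged.

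Within the cascade, the members and Gnb3 had the largest log differences, the channel came next and the receptors ranked low. Gnb3, the G beta subunit gene shared with cones, had a log difference of 0.124, with values above 0 in 53.5% of WT and 76.3% of KO cells in the authors' deposited table. It lay between Pcp2 and Gng13. Trpm1, the channel gene, followed at 0.101, with 41.9% of WT and 66.8% of KO cells above 0 in the authors' deposited table. Gnao1, the Go alpha gene, stood at 0.0585 and Gnb5, the beta subunit of the RGS complex that shuts the G protein off, at 0.0526 in the authors' deposited table. Both ranked between the channel and the receptors.

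The receptor gene Grm6 had a log difference of 0.0484, with 33.9% of WT and 63.0% of KO cells above 0 in the authors' deposited table. The orphan receptor gene Gpr179, which anchors the RGS complex, had one of 0.0437, with 25.8% of WT and 57.6% of KO cells above 0 in the authors' deposited table. Their gains in share, 29.1 and 31.8 points, were the largest of the cascade and above those of all 4 members, although their log differences were less than those of the members. Rgs9bp, another anchor of RGS proteins, had the smallest values of the cascade, a log difference of 0.0310 and a gain of 19.8 points, below the median gain of 20.8. The gain of Gnao1, 20.2 points, was below that median as well. Over the 10 listed genes the log difference and the gain therefore gave different leaders.

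**Figure D3:**
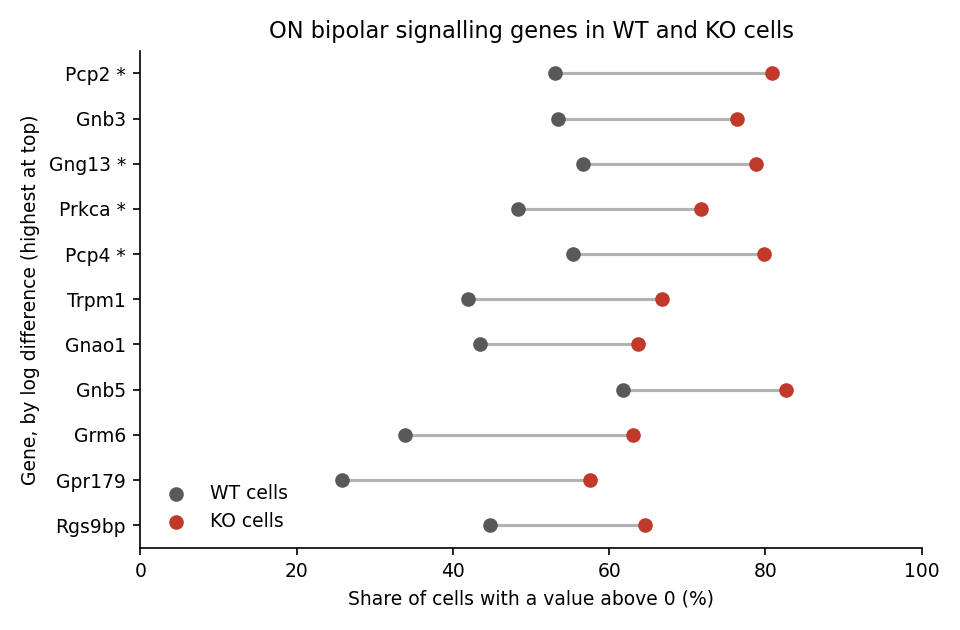
Share of WT cells (grey) and of KO cells (red) with a value above 0 (percent, horizontal) for the 10 listed genes of the mGluR6 cascade and Pcp4, ordered by log difference with the highest at the top. Asterisks mark Pcp2, Gng13, Prkca and Pcp4. The share is larger in KO for all 11 genes, and the longest lines belong to Gpr179 (31.8 points) and Grm6 (29.1 points) near the bottom.

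Other bipolar cell markers were mostly called higher, by less than the members, and transcription factors of the lineage were mixed. Of 23 bipolar markers looked for 19 were listed, with 16 called higher, 2 called lower and 1 not called in the authors' deposited table. Leaving out the 4 members, 12 of 15 were called higher, beside 69.1% of all listed genes, with a median of 0.0437. Grik1 had the largest gain of these markers, 30.3 points, and the authors' deposited table lists it above 0 in 48.5% of WT and 78.8% of KO cells. Cabp5, a calcium-binding protein gene of rod and some cone bipolar cells, had a log difference of 0.0522, and Scgn, the secretagogin gene of cone bipolar cells, one of 0.0437 in the authors' deposited table. Car8 (0.0280) and Vstm2b (0.0209) were lower in the order in the authors' deposited table. Among transcription factor genes, Isl1, a factor of ON bipolar and other inner retinal cells, had a log difference of 0.0627, Sebox 0.0333 and Bhlhe23 0.0101 in the authors' deposited table. Otx2 (-0.0264) and Lhx4 (-0.00781) were the 2 markers called lower in the authors' deposited table, beside 24.1% of all listed genes, and both are also active in photoreceptors. Their shares went the other way, larger in KO by 19.3 points for Otx2 and 18.0 points for Lhx4. Vsx1, of some cone bipolar cells, was not called (log difference 0.0110, adjusted p of 1) in the authors' deposited table. The 4 members sat at the top of this list because they were chosen for that place, and the factors of the list ran down to below 0.

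G protein subunit genes ran from Gng13 and subunits used by cones at the top to rod subunits at the bottom. Of 17 beta and gamma subunit genes looked for, 9 were listed, of which the authors' deposited table calls 5 higher and 4 lower, beside 69.1% and 24.1% of all listed genes. Besides Gng13 and Gnb3, the cone gamma subunit gene Gngt2 was high, at 0.0996, and Gnb2 stood at 0.0315 in the authors' deposited table. The rod subunit genes lay at the other end, Gngt1 at -0.250 and Gnb1 at -0.0209 in the authors' deposited table. The gamma subunit genes Gng5 (-0.00117) and Gng11 (-0.0167) were also called lower in the authors' deposited table. All 4 subunit genes called lower were nonetheless above 0 in more KO than WT cells by share, with gains of 27.1 points for Gng11, 11.5 for Gng5, 3.8 for Gnb1 and 0.3 for Gngt1. Of 14 alpha subunit genes 7 were listed, of which the authors' deposited table calls 6 higher and 1 lower, beside the same 69.1% and 24.1%. The cone gene Gnat2 (0.0678) was highest and the rod gene Gnat1 (-0.140) lowest in the authors' deposited table. Gnao1, the alpha subunit partner of Gng13, was second at 0.0585. Of the 7 listed alpha subunit genes, 4 were called and lay above the median gene, beside 45.9% of all listed genes.

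The families of the other members were sparsely listed, and the listed relatives had smaller log differences than the members, which were chosen on that value. Of 7 GoLoco genes, Gpsm2 was the only one listed besides Pcp2, and it was called lower, at -0.00828 in the authors' deposited table, with a share that was larger in KO (66.3%) than in WT (52.6%). Of 13 genes of protein kinase C and its substrates 4 were listed, and the authors' deposited table calls 3 of them higher, a share near the 69.1% of all listed genes. Marcks, a major substrate, stood at 0.0389 and Prkcq, the theta isoform, at 0.00741 in the authors' deposited table. By gain in share Marcks (24.2 points) was above Prkca (23.5 points). Nrgn, a substrate that also binds calmodulin through an IQ motif, was not called, at 0.0153 in the authors' deposited table. Of 14 genes of calmodulin, its binders and kinases 7 were listed, of which the authors' deposited table calls 5 higher and 0 lower, again near the 69.1% called higher among all listed genes. The kinase genes Camk2d (0.0616) and Camk2b (0.0509) came next after Pcp4, and the kinase inhibitor gene Camk2n1 stood at 0.0257 in the authors' deposited table. Pcp4l1, the closest relative of Pcp4 by name, was called higher at 0.00819 in the authors' deposited table, below the median gene, although its gain of 23.3 points was near that of Pcp4 (24.4 points).

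Markers of most other retinal cell types were also mostly higher in KO and those of rods were lower, and their part in the members' values was not tested. Of all listed genes, 69.1% were called higher and 24.1% lower. All 12 listed rod markers of 15 looked for were called lower, from Rp1 (-0.263) to Pde6b (-0.0494), with a median of -0.141 in the authors' deposited table. Each had values above 0 in at least 72.4% of WT cells, and each had a larger share in KO, by 0.1 to 9.9 points. Cone markers, of which 9 of 10 listed were called higher, had a median of 0.0812, led by Arr3 (0.173) in the authors' deposited table. All 5 listed amacrine markers were called higher, with a median of 0.0797 and Gad1 at 0.109 in the authors' deposited table. Of 9 listed Müller glia markers 8 were called higher, with a median of 0.0503 and Dbi at 0.103 in front in the authors' deposited table. All 4 listed horizontal cell markers were called higher with a median of 0.0248, and of 5 listed ganglion cell markers 3 were higher and 2 lower with a median of 0.00955 in the authors' deposited table.

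The values pool all cells of a genotype. A larger fraction of bipolar cells, higher values within each bipolar cell and higher values in other cells therefore cannot be told apart. A larger share in KO was also common to 97.9% of all listed genes, and the part of this in the members' values was not tested. A share above 0 is not a share of bipolar cells either. Bipolar cells are a minority of retinal cells, yet Pcp2 was above 0 in 53.1% of WT cells, and the amacrine gene Gad1 in 37.7% and the horizontal cell gene Onecut2 in 32.7%, all from the authors' deposited table. For the same reason the labelled tissue was not checked by these shares.

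**Figure D4:**
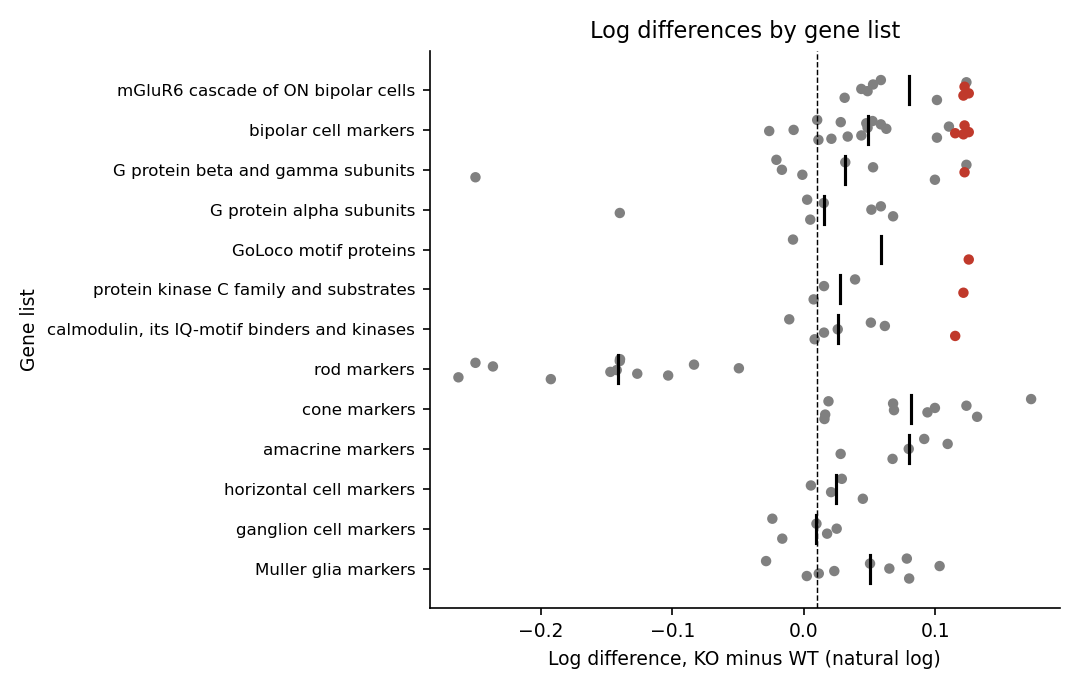
Log difference between KO and WT cells (natural log, horizontal) of every listed gene in 13 gene lists (vertical), with 1 point per gene and a short black bar at the median of each list. Pcp2, Gng13, Prkca and Pcp4 are red, and the dashed line is the median of all listed genes, 0.010. The members, chosen on this value, lie at 0.115 to 0.125, at the upper end of the lists that hold them, and the rod markers lie below 0.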

How the data were processed

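Single cells from mouse retina were sequenced in 3 WT and 5 KO libraries, grouped by their titles. Per the submitters' processing notes, Seurat 3.1.4, DESeq2 and Cell Ranger were used, with GRCm38 as the build and no role given. The labels do not state the test, cell filters, doublet treatment or integration. The single file is the authors' comparison of all KO with all WT cells. Its log difference was read as a natural log, by the convention of that Seurat version, since the deposited header gives no base. The authors gave shares of cells above 0 as fractions, printed here as percent. The authors' adjusted p-value was 2000 times the raw p-value in the 1543 rows where the quotient could be formed, which points to a Bonferroni adjustment over 2000 features, of which 1802 are listed here. An unlisted gene is therefore not shown to be unchanged.

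Calls are rows with an adjusted p under 0.05. Ranks, medians, shares of genes and odds ratios were computed with pandas 2.3.3. Simulated data were used to check ranks by log difference, nearest genes, neighbours by WT share, Benjamini-Hochberg adjustment and the motif search. Medians, shares of genes, odds ratios and the other ranks were not checked that way. Depth, number of cells and spread between libraries are unknown, so no SD, interval or test is given. The members and the 13 gene lists were chosen with earlier results of these data known. Genes named are the members, the listed genes of the 7 signalling and bipolar lists, a few extreme genes of the other lists, and the genes next to each member or nearest by rank. Some genes that the rule selects are left out of the text. Positions came from GENCODE M21 and promoter sequences from RefSeq, both on GRCm38, with all 4 members matched by symbol. Alternatives were stricter thresholds, another adjustment, a floor of 25% on the share of cells, the median gene as the zero, log2 as the base, and lists without the members.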

Additional observations from a re-analysis of the deposited data

How the results depend on the processing

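The log differences of Pcp2, Gng13, Prkca and Pcp4 kept their sign by construction, since a change of log base keeps every sign and the genes were chosen for high values. They lay between 0.105 and 0.115 against the median of all listed genes, between 0.0969 and 0.107 against the median of genes of like WT share, and between 0.0798 and 0.0869 if the deposited values are log2 and are turned into natural log units. Counts of called genes, 1680 as listed, ran down to 1624 at an adjusted p under 0.001. Benjamini-Hochberg adjustment called all 1802 rows, which was fixed by the largest raw p of 0.00938 in the table and shows nothing of stability. Read against the median gene, an alternative added after seeing the data for the whole table, 827 called genes were higher and 853 lower. Over the gene lists that reading raised the lower calls from 1 to 3 for alpha subunits and from 1 to 2 for Müller glia markers. For protein kinase C genes, calmodulin genes and horizontal cell markers they rose from 0 to 1. For ganglion cell markers they rose from 2 to 3. The higher calls of the same lists fell, from 6 to 4 for alpha subunits and from 8 to 7 for Müller glia markers. They fell from 3 to 2 for protein kinase C genes and for ganglion cell markers. For calmodulin genes the fall was from 5 to 4, and for horizontal cell markers from 4 to 3. These shifts follow from moving the zero. Without Pcp2 the GoLoco list had 0 higher calls among 1 listed gene, since its other listed gene was called lower. Of 120 alternative values 109 kept their direction and stayed within 1.5 times of the count as listed, 11 moved (among them the 3 ranks by odds ratio given above) and 0 reversed. The 109 include the signs and Benjamini-Hochberg counts that were fixed in advance, so this total is not a measure of stability. No paired analysis was possible because the table holds no value per library. Leaving out a library could not be done for the same reason. What depth limits is unknown here.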
